A study of Arabidopsis thaliana with 12 samples.

Results

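CHLM (AT4G25080) and AT1G74470 are 2 nuclear genes for enzymes of chlorophyll synthesis. They were taken as every feature that the platform annotation assigned to exactly 1 of these genes, which gave 1 feature per gene, 2 of the 3439 features on the array. No feature that the annotation shared among several genes listed either of them. The series held 12 arrays hybridised with total RNA of Arabidopsis thaliana, 6 of the wild type (WT) and 6 of the ppi1 mutant, both of ecotype Columbia 0. ppi1 is known as a loss of TOC33, a receptor that recognises precursor proteins at the outer envelope of the chloroplast, and the comparison asks how transcript levels differ when import into chloroplasts is impaired. The sources used here do not state tissue, plant age, growth conditions or array type. Nothing in the labels says that replicates were grown or extracted separately, so the p-values below refer to the spread among these 12 samples alone, and that spread may be technical.

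Chlorophyll is made inside the plastid, but the enzymes of its synthesis are encoded in the nucleus and imported as precursors. The pathway runs from 5-aminolevulinate to protoporphyrin IX, where insertion of magnesium separates it from the branch that leads to heme. CHLM, the magnesium protoporphyrin IX methyltransferase, acts on the step after magnesium insertion by adding a methyl group to a side chain of the ring. AT1G74470, the geranylgeranyl reductase (also CHLP), acts on the tail of the molecule: it reduces geranylgeranyl to the phytyl chain that anchors chlorophyll in the membrane and that is also used to make tocopherols. Plants of ppi1 are known to be pale, with chloroplasts that develop slowly.

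Intensities are relative values on a linear scale. Deposited sums per array ran from 3380 to 3582 in WT and from 3598 to 3689 in ppi1, and array medians over the 3365 features not at 0 on every array ran from 0.484 to 0.532 in WT and from 0.573 to 0.658 in ppi1. Every ppi1 array therefore had a higher median than every WT array, so levels below are given as deposited and after quantile normalisation between arrays. Replicates 1 and 2, 3 and 4, and 5 and 6 lay close together within each group, with a median absolute log2 difference of 0.0861 to 0.122, against 0.158 to 0.314 for the other pairs of a group. They are called sets below. The labels do not name them, and what they share is not known. The 4 measured features for photosystem and antenna proteins (PSAN, PSBY, LHB1B2 and PSBW) lay between the 88.4 and 99.8 percentile of intensity on each of the 12 arrays, so transcripts of green tissue were bright in both groups. Their log2 changes (ppi1 minus WT) were -0.33 for PSAN, -0.49 for PSBY, -1.05 for LHB1B2 and 0.27 for PSBW, and their part in the results below was not tested.

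The quantile-normalised CHLM signal was slightly higher in ppi1 than in WT on every pair of same-numbered arrays, while the groups as a whole overlapped. After quantile normalisation the AT1G74470 signal was close in the 2 genotypes in replicates 1 to 4 and was lower in ppi1 in replicates 5 and 6, while with median scaling it was lower in ppi1 in replicates 1 to 4 as well, by a log2 difference of -0.36 to -0.17. Over all 12 arrays, quantile-normalised and without regard to the replicate number, 0 of the 2 genes passed the test. The test was a Benjamini-Hochberg adjusted p under 0.05 in limma. Of the 3365 tested features 8.44% passed it, 3.15% as higher and 5.29% as lower in ppi1. The WT and ppi1 values overlapped for both genes, whereas they did not overlap for 6.09% of all tested features.

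CHLM deposited intensity in WT replicates 1 to 6 was 0.577, 0.635, 0.609, 0.607, 0.798 and 0.858. In ppi1 replicates 1 to 6 it was 0.742, 0.730, 0.811, 0.813, 1.14 and 1.14. In both genotypes replicates 5 and 6 were the brightest, and the WT values of these 2 replicates lay inside the ppi1 range. After quantile normalisation the WT values were 0.611, 0.677, 0.661, 0.653, 0.882 and 0.932. The ppi1 values were 0.745, 0.723, 0.719, 0.712, 1.08 and 1.05. The groups still overlapped, since WT replicates 5 and 6 exceeded ppi1 replicates 1 to 4.

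In WT the normalised CHLM level was 0.736 ± 0.135 (SD, n = 6). The ppi1 level was 0.837 ± 0.175 (SD, n = 6). The log2 change was 0.18 (SE 0.150, 95% interval -0.15 to 0.51, limma adjusted p = 0.568), or 1.13-fold. The interval includes 0, and it also includes increases larger than the estimate. An exact two-sided permutation test over all splits of the 12 arrays into groups of 6 gave p = 0.275 for CHLM, unadjusted.

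AT1G74470 was the brighter feature. Its deposited intensity in WT replicates 1 to 6 was 2.13, 2.0, 1.62, 1.62, 1.66 and 1.66. In ppi1 replicates 1 to 6 it was 1.94, 1.93, 1.62, 1.60, 1.28 and 1.21. Replicates 1 and 2 were the highest in each genotype, and ppi1 replicates 5 and 6 lay below all other arrays. Normalised values in WT were 2.05, 1.91, 1.66, 1.64, 1.73 and 1.71. In ppi1 they were 1.98, 1.95, 1.58, 1.51, 1.20 and 1.11. Here 4 of the 6 ppi1 values, those of replicates 3 to 6, were below the lowest WT value, and replicates 1 and 2 were inside the WT range.

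In WT the normalised AT1G74470 level was 1.78 ± 0.164 (SD, n = 6). The ppi1 level was 1.55 ± 0.362 (SD, n = 6). The log2 change was -0.23 (SE 0.144, 95% interval -0.55 to 0.09, limma adjusted p = 0.40), or 0.854-fold. The exact permutation test gave p = 0.173 for AT1G74470, two-sided and unadjusted.

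**Figure D1:**
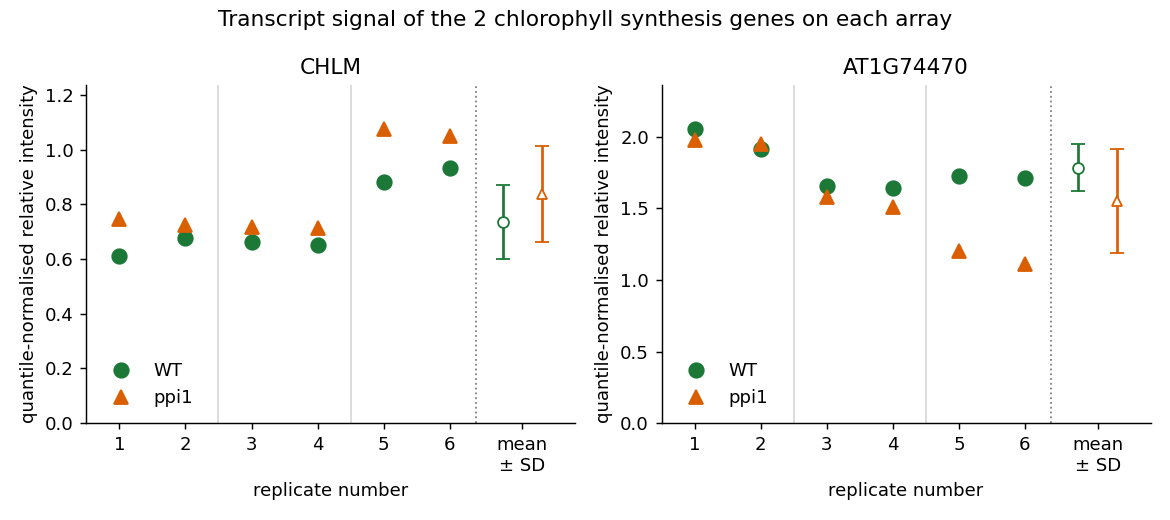
Quantile-normalised relative intensity (linear axis from 0) of CHLM and AT1G74470 on each array against the replicate number, for WT (circles) and ppi1 (triangles), with the mean ± SD of 6 arrays at the right of each panel and grey lines between the sets of adjacent replicates. CHLM is highest in replicates 5 and 6 of both genotypes, and AT1G74470 is lowest in ppi1 replicates 5 and 6, at 1.20 and 1.11.

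Between same-numbered arrays, the ppi1 value of CHLM exceeded the WT value in 6 of 6 pairs, which also held for 11.1% of all tested features. The log2 differences for replicates 1 to 6 were 0.29, 0.10, 0.12, 0.13, 0.29 and 0.17, a mean of 0.18 ± 0.0850 (SD, n = 6). Each is small, and none exceeds 1.22-fold. On the quantile-normalised values an exact two-sided sign-flip permutation test gave p = 0.0312, the smallest that 6 pairs allow. It was 0.0625 after Benjamini-Hochberg adjustment over the 2 genes. This test counts the 6 numbers as independent, although the arrays of a set lay close together. With each set averaged the sign-flip p was 0.25, the smallest that 3 pairs allow.

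With the replicate number as a block in limma, CHLM passed the test and rose in ppi1, with a log2 change of 0.18 (SE 0.0359, 95% interval 0.09 to 0.27, adjusted p = 0.0252). In that fit 15.4% of all features passed and 7.43% passed as higher, so the call is shared with many features. Of the CHLM sum of squares over the 12 arrays, 86.0% lay between replicate numbers, 11.8% between genotypes and 2.18% in the remainder. The medians of these shares over all features were 55.3%, 10.4% and 21.2%. CHLM did not pass with each set averaged, with 3 values per group (limma adjusted p = 0.856), or with the sets as a random block (0.768). Both fits leave out the pairing by number, and 4 and 99 of the 3365 features passed in them. CHLM also missed with the averages and the set as a block (adjusted p = 0.233, 95% interval 0.05 to 0.32). There 0 of the 3365 features passed, so the missed call is not particular to CHLM.

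For AT1G74470 the log2 differences in replicates 1 to 6 were -0.06, 0.03, -0.07, -0.12, -0.53 and -0.62. ppi1 was lower in 5 of 6 numbers, and the mean was -0.23 ± 0.273 (SD, n = 6), so the spread over the numbers exceeded the mean. The exact two-sided sign-flip permutation test gave p = 0.0625, which stayed at 0.0625 after adjustment over the 2 genes. With each set averaged the sign-flip p was 0.25, the smallest that 3 pairs allow. With the replicate block AT1G74470 did not pass (SE 0.103, limma adjusted p = 0.188). Of its sum of squares, 58.9% lay between replicate numbers, 18.8% between genotypes and 22.4% in the remainder. Its share between genotypes was above the median of 10.4% over all features.

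**Figure D2:**
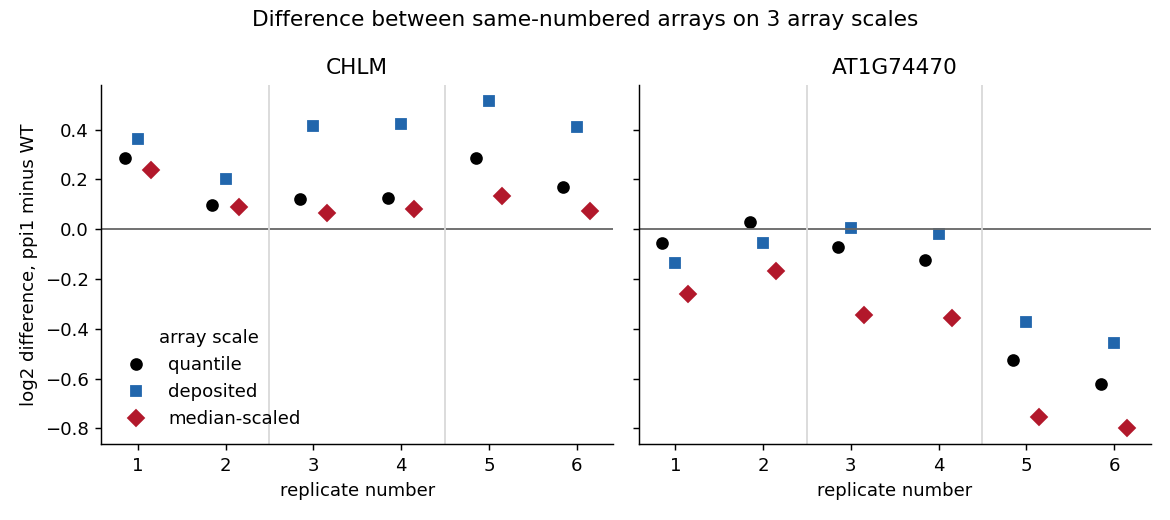
Log2 difference between same-numbered ppi1 and WT arrays against the replicate number, for CHLM and AT1G74470, on the quantile-normalised, deposited and median-scaled intensities (1 point per pair of arrays). CHLM lies above 0 in all 6 numbers on these 3 scales, and AT1G74470 lies furthest below 0 in replicates 5 and 6.

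Taken by set, the normalised CHLM level (geometric mean of 2 arrays) was 0.643 in WT and 0.734 in ppi1 for replicates 1 and 2. It was 0.657 and 0.716 for replicates 3 and 4, and 0.907 and 1.06 for replicates 5 and 6. The log2 differences of the sets were 0.19, 0.12 and 0.23. In order of level, the lowest were WT replicates 1 and 2 and WT replicates 3 and 4, whose arrays overlapped, followed by the ppi1 arrays of replicates 3 and 4 and of replicates 1 and 2. The step from these to replicates 5 and 6 was larger than any genotype difference within a set.

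The AT1G74470 level was 1.98 in WT and 1.96 in ppi1 for replicates 1 and 2, and the arrays of the genotypes overlapped. It was 1.65 and 1.54 for replicates 3 and 4, a log2 difference of -0.10. For replicates 5 and 6 it was 1.72 and 1.16, a log2 difference of -0.57 or 0.672-fold. Adjacent arrays differed on the log2 scale by 0.103 (WT) and 0.0184 (ppi1) in replicates 1 and 2, by 0.0105 and 0.0638 in replicates 3 and 4, and by 0.0147 and 0.109 in replicates 5 and 6. The genotype difference exceeded this spread in the sets of replicates 3 and 4 and of replicates 5 and 6, and not in that of replicates 1 and 2.

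Whether the genotype difference varied among the 3 sets was tested with an interaction term in limma over all features, a test added after these values were seen. AT1G74470 passed (F = 38.2, adjusted p = 0.00402) and CHLM did not (F = 1.04, adjusted p = 0.609). In that test 18% of all features passed, so variation among sets was common on these arrays. The test takes the spread between adjacent arrays as its error, so its p-values are too small if those arrays are not independent samples. AT1G74470 passed it on the 5 other array scales too (adjusted p = 0.00264 to 0.0119), where 15.9% to 25.6% of all features passed. Without replicates 5 and 6 the log2 change of AT1G74470 over the other 8 arrays was -0.06 (SE 0.122, limma adjusted p = 0.852), and that of CHLM was 0.15 (SE 0.0365, adjusted p = 0.0486). In that fit 146 of the 3365 features passed as higher. On the 5 other array scales these 8 arrays gave -0.28 (median scaling) to -0.05 for AT1G74470, with 0 passing. For CHLM they gave 0.12 to 0.35, and it did not pass with median scaling (adjusted p = 0.0703), cyclic loess (0.120) or an offset (0.111). Leaving out ppi1 replicate 6 alone gave -0.14 for AT1G74470 and 0.11 for CHLM, and leaving out ppi1 replicate 5 alone gave 0.10 for CHLM.

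The size of each difference depended on how the arrays were scaled, since the ppi1 arrays were brighter at the median. Without scaling, the median log2 change of all features was 0.206. CHLM was at 0.39 there (SE 0.149, limma adjusted p = 0.0759), against 0.18 after quantile normalisation. With each array divided by its median, CHLM was at 0.11 (adjusted p = 0.732). AT1G74470 had a log2 change of -0.17 as deposited (SE 0.132, adjusted p = 0.352) and at -0.45 with median scaling (SE 0.148, adjusted p = 0.0759). On the median scale AT1G74470 was lower in ppi1 in 6 of 6 numbers, and with the replicate block it passed and fell (adjusted p = 0.0279), where 15.5% of all features passed as lower. With the arrays divided by their upper quartiles and the replicate block it also passed, at -0.34 (adjusted p = 0.0499), beside 9.33% of all features passing as lower. Over all features, 106 passed as higher and 178 as lower after quantile normalisation, against 805 and 104 on the deposited scale, 80 and 336 with median scaling, and 219 and 193 with upper-quartile scaling. The calls are thus relative to the scale chosen, but CHLM had a positive and AT1G74470 a negative log2 change in each of the fits run. Fits that differ only in a block share their estimate, so they add nothing on direction.

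**Figure D3:**
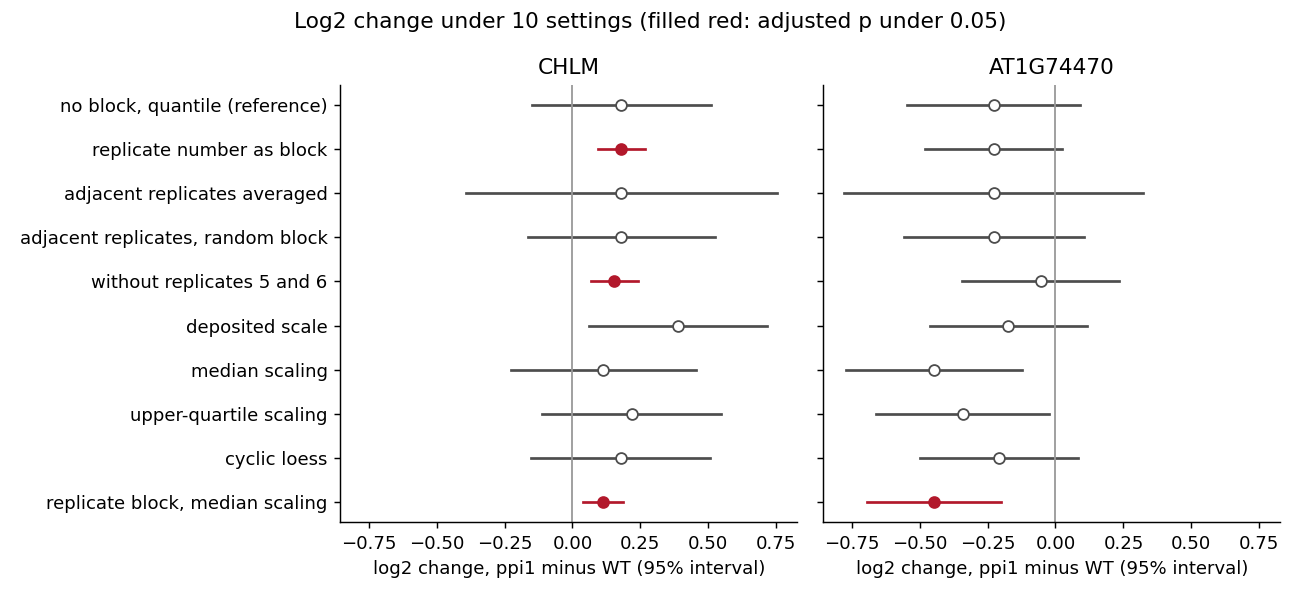
Log2 change of CHLM and AT1G74470 (ppi1 minus WT) with its 95% interval from limma under 10 settings, filled red where the adjusted p over all features was under 0.05. CHLM is at 0.11 to 0.39 and AT1G74470 at -0.45 to -0.06 in these settings, and CHLM is filled in 3 of them and AT1G74470 in 1.

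The 2 genes can be compared without a choice of a common factor per array, because dividing an array by a factor leaves the ratio of its features unchanged. The ratio still depends on any difference between arrays that acts unequally on bright and less bright features. CHLM lay at the 66.7 and AT1G74470 at the 91.0 percentile of mean level, and the part of such a difference was not tested. With cyclic loess the mean difference of the ratio was 0.38 (exact permutation p = 0.203). On the deposited intensities log2 of CHLM over AT1G74470 in WT replicates 1 to 6 was -1.88, -1.66, -1.41, -1.42, -1.06 and -0.95. In ppi1 it was -1.39, -1.40, -1.0, -0.98, -0.17 and -0.08. The ratio was higher in ppi1 in 6 of 6 numbers, by 0.26 to 0.89 on the log2 scale, and the groups overlapped because it also differed between the sets of both genotypes. The mean difference was 0.56 on the deposited scale (exact permutation p = 0.0693, two-sided, n = 6 per group) and 0.41 after quantile normalisation, which is not a common factor per array (exact permutation p = 0.206). Paired by number, the exact sign-flip test gave p = 0.0312, the smallest it allows. With the sets averaged, 3 values against 3, the exact permutation p was 0.50, where 0.10 is the smallest possible. A ratio within an array shows unequal differences of the 2 features and not which of them differed.

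**Figure D4:**
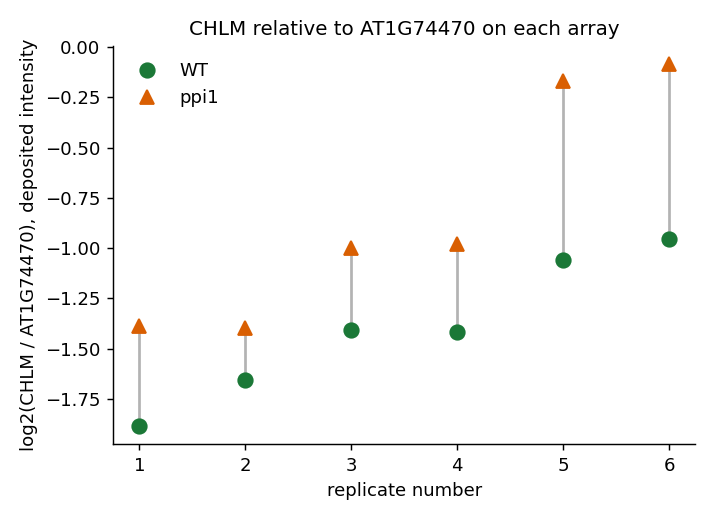
Log2 ratio of the deposited CHLM to the deposited AT1G74470 intensity on each array against the replicate number, with a grey line joining same-numbered WT (circles) and ppi1 (triangles) arrays. The ppi1 point is above its WT partner in all 6 numbers, by 0.26 in replicate 2 and by 0.89 in replicate 5. The height sets features of different probes against each other, so only differences between arrays can be read.

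Among all tested features, CHLM lay at the 66.7 percentile of mean level and AT1G74470 at the 91.0 percentile, and neither gene had an array at the floor of 0.118. The log2 change of CHLM was at the 79.7 percentile of all features and that of AT1G74470 at the 14.9 percentile. Their pooled SD within groups was 0.270 and 0.260 on the log2 scale, against a median of 0.217. Both genes therefore varied somewhat more within groups than the middle feature.

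The wider pathway was hardly covered. Of 58 listed loci, 3 had a feature with 1 gene, and 4 others occurred only in features shared by several genes, which are not named or used. The magnesium branch list of 14 loci had CHLM and AT1G74470. The lists of heme and bilin synthesis (6 loci), chlorophyll breakdown (9), phytol and tocopherol synthesis (5) and plastid isoprenoid supply (8) had 0 measured genes each. The early list, from 5-aminolevulinate to protoporphyrin, had 1 of 16, HEMA3 (AT2G31250), a gene for glutamyl-tRNA reductase, which commits glutamate to tetrapyrrole synthesis. Of the 3 measured genes, 0 passed over all 12 arrays in the quantile-normalised fit without a block.

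HEMA3 normalised intensity in WT replicates 1 to 6 was 1.18, 1.01, 1.36, 1.33, 1.35 and 1.31. In ppi1 it was 0.871, 0.870, 0.905, 1.08, 1.13 and 1.18. It was lower in ppi1 in 6 of 6 numbers, as were 11.3% of all features, though WT replicates 1 and 2 lay within the ppi1 range. On the deposited scale it was lower in 5 of 6 numbers, with a log2 difference of 0.03 in replicate 6. The HEMA3 log2 change was -0.32 (SE 0.104, limma adjusted p = 0.0850) over all arrays. The exact permutation test gave p = 0.0195 for HEMA3, two-sided and unadjusted. With the replicate block it passed and fell (adjusted p = 0.0240), where 7.93% of all features passed as lower. Its log2 change was -0.19 as deposited (adjusted p = 0.239) and -0.47 with median scaling. There it passed (adjusted p = 0.0175), beside 336 of the 3365 features passing as lower. It also passed without WT replicate 2 (-0.38, adjusted p = 0.0394), where 148 of the 3365 features passed as lower. It did not pass with the sets averaged (adjusted p = 0.488) or as a random block (0.326), where 4 and 99 of all features passed. HEMA3 also missed with these averages and the set as a block (0.228), where 0 of all features passed. With the replicate block on the deposited scale it missed too (0.0654). HEMA1 and HEMA2 are its close relatives, and whether the feature also detects them was not tested.

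The genes with the most similar profiles were sought among the 560 other features with 1 gene and no array at the floor, by Pearson correlation of log2 normalised intensity over the 12 arrays. For CHLM the 5 highest were AT2G37580 (r = 0.92), AT2G47360 (0.91), AT3G29185 (0.91), AT1G76220 (0.90) and AT3G06870 (0.90). Their log2 changes between genotypes ran from 0.03 to 0.26, and 0 of 5 passed. For AT1G74470 they were AT4G24930 (0.90), AT4G31470 (0.87), the glycosyl hydrolase gene GH9B8 (0.85), AT2G25870 (0.85) and AT4G38040 (0.79). Their log2 changes ran from -0.23 to -0.09, and again 0 of 5 passed. The arrays of a set and the quantile normalisation are shared by all these profiles, so the correlations are descriptive. Replicates 5 and 6 of ppi1 had the highest CHLM and the lowest AT1G74470 values of the 12 arrays.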

How the data were processed

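Total RNA of 6 WT and 6 ppi1 samples was measured on 1 array each. The deposited table holds a linear intensity for each feature on each array. The sources used here do not give the array type or how the authors corrected background or scaled these intensities. Groups and replicate numbers came from the sample titles. Features were named through the platform annotation, by gene identifier against the TAIR10.1 gene table, and coordinates are left out since no build is named. The 74 features at 0 on every array were left out. The other 3365 were quantile-normalised, values under the 5th percentile of positive values (0.118) were set to it, and values were log2-transformed. The groups were compared by lmFit and eBayes of limma 3.58.1 in R 4.3.3, with Benjamini-Hochberg adjustment over all 3365 features. The fit was also run on simulated data with independent noise on each array. That simulation leaves out the likeness of arrays within sets, so it cannot show how the fit behaves with it. Same-numbered arrays of WT and ppi1 deviated together from their group means (correlations 0.379 to 0.590, each highest for its own number). The sign-flip tests and the replicate block paired arrays by number, a pairing seen in the data and not stated in the labels. The limma fit without a block and the exact permutation tests over splits of the arrays did not pair them. The number of arrays limits the precision. Named genes were the 2 members, the pathway loci with a feature of 1 gene, and the 5 most similar profiles per member. The members, lists and tests were chosen with earlier results of these data known. No sequence of the genes or probes was used here.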

Additional observations from a re-analysis of the deposited data

How the results depend on the processing

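The direction of CHLM (39 alternatives), AT1G74470 (39), HEMA3 (36) and the within-array ratio (18) was kept in each alternative run. Some of these, such as the blocks, averaged sets and permutation tests, change the error and not the estimate, so they could not change the direction. Median scaling likewise leaves the ratio as deposited. CHLM passed with the replicate block (0.18), with the block on the deposited scale (0.39), median scaling (0.11), upper-quartile scaling (0.22) and cyclic loess (0.18). In these fits 250, 1214, 184, 474 and 258 of the 3365 features passed as higher, in that order. CHLM also passed without replicates 5 and 6 (0.15, 0.35 as deposited and 0.22 with upper-quartile scaling). There 146, 613 and 249 of the 3365 features passed as higher. CHLM missed with the block and an offset (adjusted p = 0.0586). AT1G74470 passed with the block under median (-0.45) and upper-quartile scaling (-0.34) alone, beside 15.5% and 9.33% of all features passing as lower. Paired by number, CHLM and AT1G74470 had an exact sign-flip permutation p under 0.05 with median scaling (0.11 and -0.45) and upper-quartile scaling (0.22 and -0.34). The same held with cyclic loess (0.18 and -0.21). The adjusted p was 0.0312 each, since all 6 numbers of both genes had 1 sign on these scales. Any feature with 1 sign in all 6 numbers reaches 0.0312 before adjustment, as 22.4% of all tested features did after quantile normalisation. That share was not counted on these scales. The ratio (0.41) passed with the replicate block. Leaving out single arrays gave 0.10 to 0.25 for CHLM, -0.30 to -0.14 for AT1G74470 and 0.25 to 0.52 for the ratio, with 0 of these passing. Against 284 features called, the deposited scale gave 909, the replicate block 517, the random block 99 and averaged sets 4. Averaged sets with a block gave 0 in limma, with 601 at an unadjusted p under 0.05. With the block, the deposited scale gave 1364, median scaling 704, upper-quartile scaling 788, cyclic loess 528 and an offset 472. Without replicates 5 and 6, the deposited scale gave 713 and median scaling 427. The cause was not tested. The fits within sets, without replicates 5 and 6, with averaged sets in a block, with the block on other scales, of the interaction and of HEMA3 were chosen after seeing the data.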
